A study of Homo sapiens with 6 samples.

Results

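Haem is built by a chain of enzymes that starts and ends in the mitochondrion. The genes described here encode these enzymes, with both isoforms of the entry enzyme, and the importer that brings them iron, namely ALAS1, ALAS2, ALAD, UROS, UROD, CPOX, PPOX, FECH and SLC25A37. They were taken by name, and every probe set that the platform annotation gives to 1 of these genes alone was used, which made 28 of 54675 probe sets and 9 of 19775 genes. K562 is an established human line from a chronic myeloid leukaemia with an erythroid character. Its cells were nucleofected with an siRNA, named RNAi8 in the labels, or with scrambled RNA, each at up to 200 nM. The treatment, all-trans retinoic acid (ATRA) or the DMSO control, followed after 24 hours. There are 6 Affymetrix HG-U133 Plus 2.0 arrays from 3 independent experiments, with 1 siRNA and 1 scrambled array in each. Experiments 1 and 3 were done under ATRA and experiment 2 under DMSO, so siRNA and scrambled RNA have 3 arrays each and ATRA is compared with DMSO as 2 experiments against 1. All cells were K562 cells, all were nucleofected, and the labels name no untransfected sample.

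Delta-aminolevulinate synthase joins glycine to succinyl-CoA and sets the pace of the pathway. ALAS1 is the form present in most cells, and ALAS2 is the erythroid form, driven by GATA1 and held under iron control through an iron-responsive element in its messenger RNA. Retinoic acid acts through nuclear receptors that bind direct repeats of AGGTCA, and PRAME, the gene the series is about, represses signalling through them. K562 cells make haemoglobin when they are driven towards the red cell fate, and haem synthesis is part of that programme.

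The upstream sequences are shown for the 3 genes whose arrays separated by treatment. These genes were picked by their values on these arrays, and a link between sequence and signal was not tested. Each is the 250 bases before the start site in RefSeq (GRCh38.p14), written 5′ to 3′ on the gene's strand. Capitals mark every match to the motifs searched, on either strand. A GATA site was taken as AGATAA or TGATAA, or with a final G as AGATAG or as TGATAG. The core shared by NF-E2 and AP-1 was taken as TGAGTCA or its reverse TGACTCA. The promoter motifs CACCC and CCAAT were searched as written. So were the GC box, GGGCGG, and the nuclear receptor motif AGGTCA. The NRF1 motif was searched too.
ALAS1, chr3:52197833-52198082, plus strand: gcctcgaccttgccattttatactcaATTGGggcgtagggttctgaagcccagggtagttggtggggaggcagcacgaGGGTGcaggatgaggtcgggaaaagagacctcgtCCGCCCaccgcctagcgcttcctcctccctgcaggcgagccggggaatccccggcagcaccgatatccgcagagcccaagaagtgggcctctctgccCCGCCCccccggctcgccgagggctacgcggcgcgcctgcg
ALAS2, chrX:55030978-55031227, minus strand: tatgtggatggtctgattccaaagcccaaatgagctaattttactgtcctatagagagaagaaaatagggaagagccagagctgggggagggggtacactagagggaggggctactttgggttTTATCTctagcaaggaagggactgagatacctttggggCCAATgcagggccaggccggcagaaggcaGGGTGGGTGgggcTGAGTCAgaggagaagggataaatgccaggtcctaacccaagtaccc
FECH, chr18:57586703-57586952, minus strand: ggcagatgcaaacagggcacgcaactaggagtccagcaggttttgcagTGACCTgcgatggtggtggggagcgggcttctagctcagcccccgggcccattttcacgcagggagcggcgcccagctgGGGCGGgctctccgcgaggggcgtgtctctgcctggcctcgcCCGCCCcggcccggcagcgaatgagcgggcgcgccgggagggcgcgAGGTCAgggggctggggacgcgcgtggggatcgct

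ALAS2 held 1 GATA match, which starts at -127 from the start site, and 1 NF-E2 and AP-1 core at -47, with CACCC matches on the other strand at -60 and -56 that overlap by a base. A GATA match occurred in 22.3% of 35116 such windows and the NF-E2 core in 4.2%. FECH held AGGTCA at -202 and -35, against 12.1% of windows with any match. ALAS1 held no GATA match in these 250 bases, 2 GGGCGG matches (42.6% of windows hold one) and CACCC and CCAAT matches (54.7% and 32% of windows). An NRF1 match in ALAS1 starts at 22 bases past the start site, which lies outside the sequence shown. Starts of 7 of the 9 genes were searched, with 2 each for ALAD and PPOX, and none for UROS and SLC25A37. Of these 7, PPOX, CPOX, ALAD and ALAS2 held a GATA match upstream of at least 1 start, FECH alone held AGGTCA, and none held the direct repeat of AGGTCA with 5 bases between, which occurred in 1 of all windows. A match is a description of letters, not a bound site.

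The values are log2 signals after RMA normalization, and a signal below the median of all values on the arrays (5.99) is called dim, since it is not shown to be above background. All 9 genes were above it at the probe set with the highest mean, which stands for the gene in every test, and 3 of their 28 probe sets were dim. Levels of different probe sets cannot be set against each other, so no order of the enzymes by level is given. Of 12 erythroid identity genes 8 were measured and all lay above the dim range. Markers of lymphocytes, stroma and epithelium had 7 of 12 measured genes above it, and the list means over the arrays ran from 6.41 to 6.82 for T and NK lymphocytes, 6.15 to 6.48 for B lymphocytes, 6.77 to 6.95 for stroma and 7.59 to 7.68 for epithelium. PRAME, the target in the series, averaged 12.90 ± 0.17 (SD, n = 3) on scrambled arrays and 12.12 ± 0.02 (SD, n = 3) on siRNA arrays. Experiment 3 stood apart: its arrays correlated with the other 4 at 0.979 to 0.982 across probe sets, against 0.996 or more among experiments 1 and 2. Its actin 3′ probe set exceeded the 5′ one by 2.98 and 3.36, against 0.63 to 0.92 elsewhere, and for GAPDH by 1.20 and 0.74, against 0.03 to 0.08. The labels give the experiments as independent, but not how the cultures of 1 experiment relate.

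**Figure D1:**
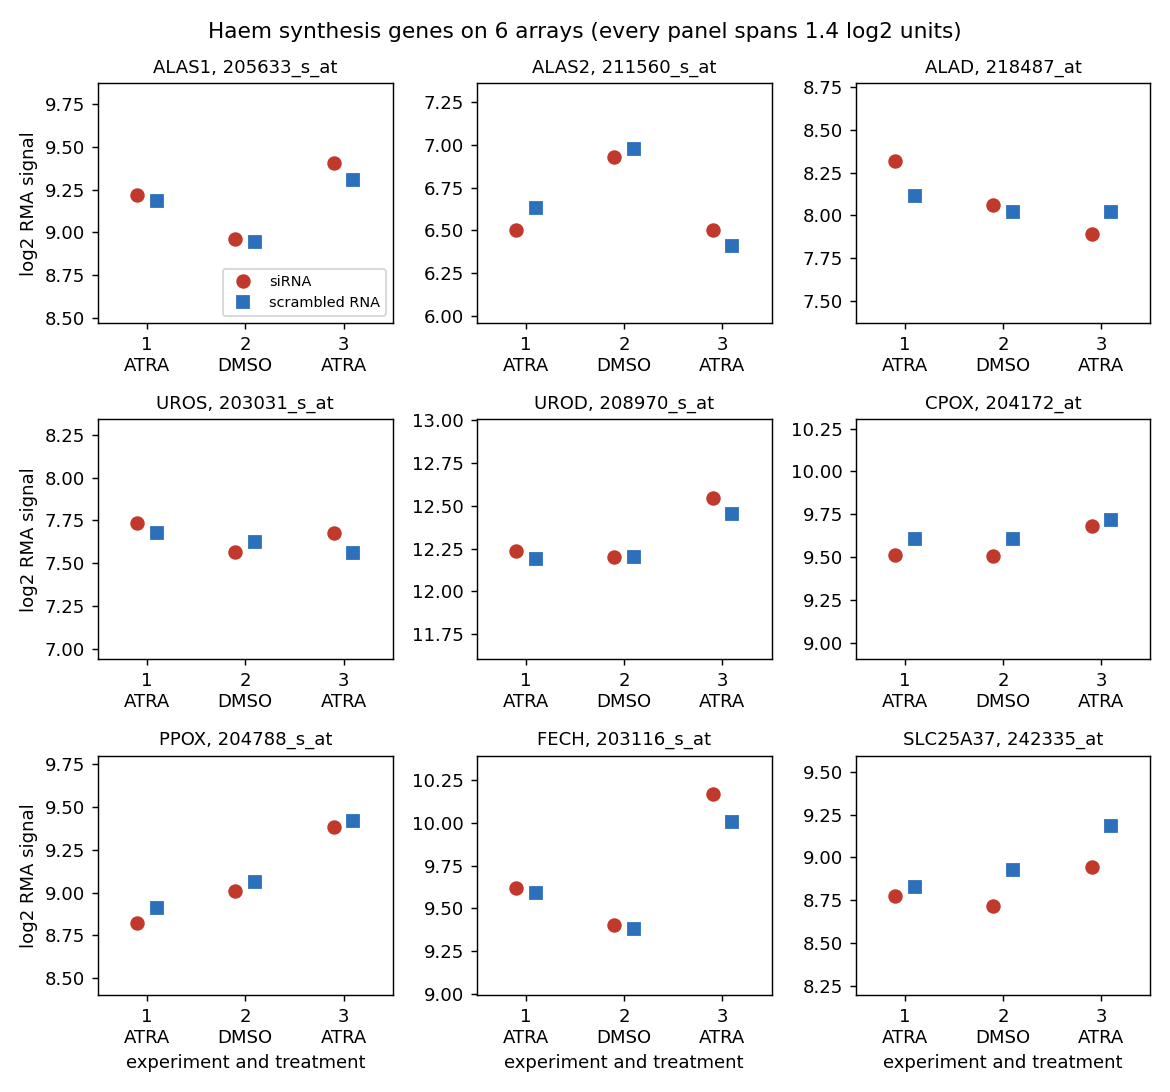
The log2 RMA signal (y axis) of each haem synthesis gene is plotted by experiment and treatment (x axis), with circles for siRNA and squares for scrambled RNA, 1 array each. ALAS2 lies between 6.41 and 6.63 on the ATRA arrays and at 6.93 and 6.98 under DMSO, while FECH is at 10.00 or above only in experiment 3.

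Whether ATRA-treated cells differed from DMSO-treated cells was asked first, with the experiment as the replicate. In limma on the 3 experiment means 0 of 19775 genes (0%) passed at an adjusted p of 0.05, so none of the 9 members did. This says little about them. CYP26A1, the retinoic acid hydroxylase and a known ATRA target, was 5.60 and 6.29 log2 units above DMSO in experiments 1 and 3, with an unadjusted p of 0.000199, and did not pass this limma fit either (adjusted p = 0.995). At an unadjusted p below 0.05 there were 235 genes (1.19%), and ALAS2 was the 1 member among them. With all 6 arrays and a random term for the experiment, 2 genes passed (0.0101%), CYP26A1 among them (limma adjusted p = 0.00656) and no member. In the experiment means 8 of the 9 members were above DMSO, as were 47.8% of all genes, with a median of 0.10 against -0.01. Set against DMSO one experiment at a time, 6 members were above it in experiment 1 and 7 in experiment 3. In bulk RNA, fewer cells of a kind and less RNA per cell cannot be told apart.

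ALAS2 had lower signal on every ATRA array than on either DMSO array. On the siRNA and scrambled arrays its log2 level was 6.50 and 6.63 in experiment 1 (ATRA), 6.93 and 6.98 in experiment 2 (DMSO), and 6.50 and 6.41 in experiment 3 (ATRA). The groups did not overlap, and the signal under ATRA was 76.5% of that under DMSO in experiment 1 and 70.8% in experiment 3. The difference was -0.44 ± 0.13 (SE, 2 experiments against 1; 95% interval -0.81 to -0.07), with a limma unadjusted p of 0.0294 and an adjusted p of 0.995. In the fit over all probe sets the limma unadjusted p was 0.0659. The level of this probe set, 6.41 to 6.98, is low. It lay above the dim range and between the lowest and highest list means of lymphocyte, stroma and epithelium markers (6.15 and 7.68). Bright genes such as EPCAM (mean over the arrays 11.54) and CD3D (10.08) raise some of these means, so they give no background level. Whether the ALAS2 signal was above background was not tested. The second ALAS2 probe set was dim, from 5.15 to 5.52, and its arrays overlapped between treatments, and the mean of both probe sets gave a difference of -0.22 ± 0.10 (SE).

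ALAS1, the ubiquitous form, lay on the other side. Its levels were 9.22 and 9.18 in experiment 1, 8.96 and 8.95 in experiment 2, and 9.41 and 9.31 in experiment 3, again siRNA first. All 4 ATRA arrays were above both DMSO arrays, by 1.19-fold in experiment 1 and 1.32-fold in experiment 3. The difference was 0.33 ± 0.29 (SE), with a 95% interval of -0.49 to 1.14 and an adjusted p of 0.995. Its 1 probe set allows no second look at the gene.

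FECH encodes ferrochelatase, which inserts iron into protoporphyrin in the last step. Its levels were 9.62 and 9.59 in experiment 1, 9.40 and 9.38 in experiment 2, and 10.16 and 10.00 in experiment 3. The ATRA arrays were above the DMSO arrays at this probe set and at both others of the gene, which stood at 8.81 and 8.81, 8.64 and 8.73, and 9.38 and 9.30 (203115_at) and at 6.52 and 6.54, 6.40 and 6.51, and 6.84 and 6.61 (229696_at). The fold was 1.16 in experiment 1 and 1.62 in experiment 3, the experiment with the larger control gaps, whose part in the result was not tested. The difference was 0.45 ± 0.36 (SE), with a 95% interval of -0.55 to 1.46 and an adjusted p of 0.995.

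ALAS1 and FECH made 2 members whose 4 ATRA arrays were all above both DMSO arrays, where 13.5% of all genes were, and ALAS2 made 1 member all below, where 13.2% were. Over the 28 probe sets the arrays were all above at 5 and all below at 4, against 11.1% and 11.8% of all probe sets. Probe sets of 1 gene are not independent, and the counts are a description. When experiments 1 and 2 alone were compared with their 4 arrays as replicates, no member was among the 132 genes called (0.668%), and 5 of the 9 had an unadjusted p below 0.05, where 14.9% of all genes did. ALAS2 (-0.39, adjusted p = 0.104), ALAS1 (0.25, adjusted p = 0.121) and FECH (0.21, adjusted p = 0.133) were the nearest to the threshold in that fit. It counts arrays of 1 experiment as replicates, so its p-values are too small for a statement about ATRA.

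The middle enzymes had small differences, and of these 5 genes ALAD and PPOX had another sign in experiment 3 than in experiment 1. ALAD, the synthase of the first pyrrole, was at 8.32 and 8.11 in experiment 1, 8.06 and 8.02 in experiment 2, and 7.89 and 8.02 in experiment 3. It was thus above DMSO in experiment 1 and below it in the mean of experiment 3, a difference of 0.05 ± 0.25 (SE), and its fainter probe set stayed between 6.07 and 6.28. UROS, which closes the ring, was at 7.74 and 7.68, 7.56 and 7.62, and 7.68 and 7.56, a difference of 0.07 ± 0.19 (SE). At a second UROS probe set the ATRA arrays were all above the DMSO arrays, at 7.24 and 7.21, 7.14 and 7.02, and 7.63 and 7.57, and at the third, from 6.46 to 6.71, they overlapped. UROD, which removes the acetate carboxyl groups, was at 12.23 and 12.19, 12.20 and 12.20, and 12.55 and 12.45. Its arrays of experiments 1 and 2 were close, and those of experiment 3 were above both, a difference of 0.15 ± 0.21 (SE). A second bright UROD probe set ran the other way, at 11.58 and 11.61, 11.68 and 11.64, and 11.40 and 11.40, and the third ranged from 7.84 to 8.17 with overlap.

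The mitochondrial oxidases CPOX and PPOX come before FECH. CPOX was at 9.51 and 9.60 in experiment 1, 9.50 and 9.60 in experiment 2, and 9.68 and 9.72 in experiment 3. The means of experiments 1 and 2 differed by 0.0028, and the difference over all was 0.07 ± 0.29 (SE). PPOX was at 8.82 and 8.91 in experiment 1, 9.01 and 9.06 in experiment 2, and 9.38 and 9.42 in experiment 3. Its ATRA experiments lay on opposite sides of DMSO, at -0.17 and 0.37, and the difference was 0.10 ± 0.37 (SE). The other PPOX probe sets were dim, from 4.85 to 5.47. For all 5 of these genes the limma adjusted p was 0.995.

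SLC25A37, mitoferrin 1, carries iron into the mitochondrion for FECH, and its probe sets disagreed in experiment 3. The probe set 242335_at, which stands for the gene, was at 8.78 and 8.83 in experiment 1, 8.72 and 8.93 in experiment 2, and 8.94 and 9.18 in experiment 3. In contrast, 222528_s_at was at 7.94 and 7.89, 7.99 and 8.18, and then 5.17 and 5.61 in experiment 3, which is dim. The probe set 222529_at was at 9.36 and 9.43, 9.23 and 9.54, and then 7.53 and 7.46. Of the 10 probe sets of the gene, 5 were lower in experiment 3 than in experiment 1, by up to -2.52, and 5 were higher, by up to 0.48. The probe sets 222528_s_at and 222529_at were lower by over 1 log2 unit, as were 2.28% of all probe sets.

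The treatment of experiments 1 and 3 was the same, so the lower signal at part of the SLC25A37 probe sets is a difference between these experiments. Between experiments 1 and 2, the same 10 probe sets differed by -0.17 to 0.01. The spread of 3.00 between the probe sets of the gene was reached by 11 of the 352 genes with at least 5 probe sets above the dim range, SLC25A37 included, where the median spread was 1.17. The larger actin and GAPDH gaps moved with this, and their part in it was not tested. The gene's ATRA difference therefore depends on the probe set: it was 0.11 ± 0.30 (SE) at 242335_at and -0.29 ± 0.25 (SE) for the mean of all 10, with limma adjusted p of 0.995 and 0.999. Without experiment 3 it was -0.02 at 242335_at.

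**Figure D2:**
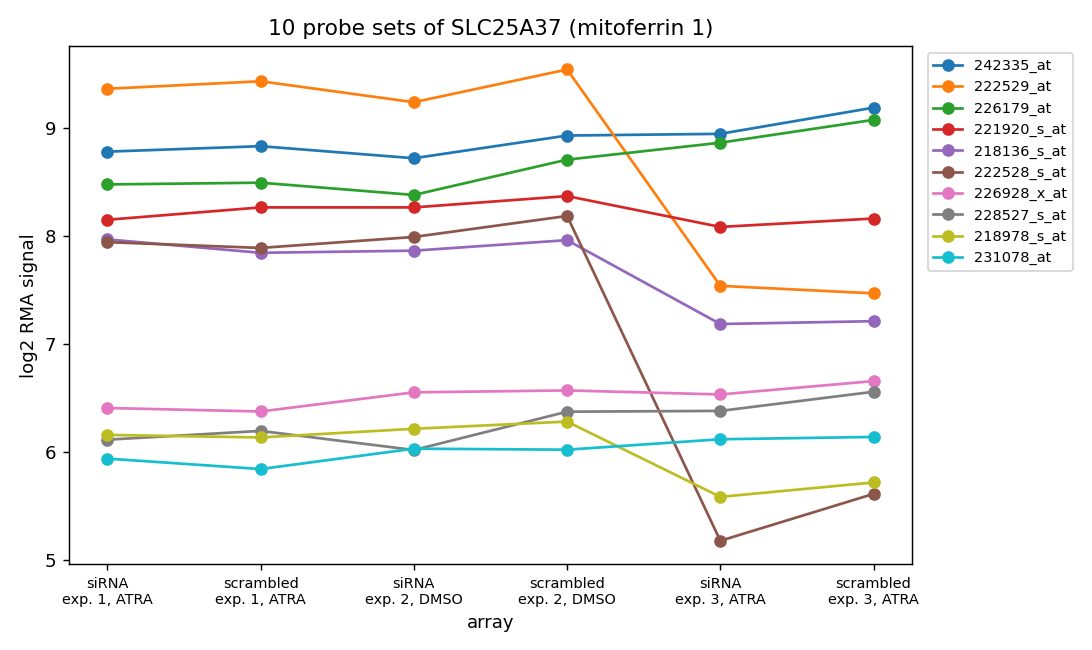
The log2 RMA signal (y axis) of the 10 SLC25A37 probe sets is plotted for each of the 6 arrays (x axis), with a line per probe set. In experiment 3, 222528_s_at drops to 5.17 and 5.61 and 222529_at to 7.53 and 7.46, while 226179_at stands at 8.86 and 9.07, above its values on the other arrays.

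At the probe sets that stand for the 9 genes, FECH had the largest range over the arrays, and its profile was compared with 12874 other genes above the dim range. The nearest were MESD, DDX50, PAPOLG, SGO1 and CCDC77, with a root-mean-square difference of 0.021, 0.024, 0.026, 0.029 and 0.029 log2 units over the 6 arrays once each gene was centred on its mean. MESD, a chaperone of LDL receptor family proteins, stood at 10.62, 10.44 and 11.09 in experiments 1, 2 and 3. Like FECH, these 5 genes were highest in experiment 3, and the likeness is over 6 arrays that pair within experiments.

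Whether the siRNA changed the haem synthesis genes was asked over all 6 arrays. No member passed: with treatment as a covariate limma called 0 of 19775 genes (0%), with 255 (1.29%) at an unadjusted p below 0.05 and 0 members among them. PRAME, the siRNA target, did not pass this fit either, at -0.78 (limma unadjusted p of 0.000307) and 58.4% of the scrambled signal. The fit therefore says little about the members. With the experiment as a block limma called 5 genes (0.0253%), PRAME among them (limma adjusted p = 0.000997) and no member. The members' differences were small, 5 above 0 and 4 below (47.1% of all genes were below), with a median of 0.04 against 0.01 over all genes. By experiment, 5, 3 and 5 of the 9 were higher, with medians of 0.03, -0.05 and 0.10.

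SLC25A37 had the largest of these differences. At 242335_at it was lower with the siRNA in each experiment, by -0.05, -0.21 and -0.24, which left 89.0% of the scrambled signal. The group means were 8.98 ± 0.18 (SD, n = 3) on scrambled arrays and 8.81 ± 0.12 (SD, n = 3) on siRNA arrays, and the groups overlapped. The difference was within the scrambled spread, which includes differences between experiments. The 3 differences within experiments had an SD of 0.10. The fit gave -0.17 ± 0.13 (SE, adjusted p = 1). With the block it was -0.17 ± 0.06 (SE, 95% interval -0.30 to -0.04), with an unadjusted p of 0.0153, reached by 6.41% of all genes, and an adjusted p of 0.771. Of its 10 probe sets 8 were lower with the siRNA on average, and 4 were lower in all 3 experiments, as were 11.3% of all probe sets. These probe sets report on the same gene and are not independent.

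CPOX and PPOX were also lower with the siRNA in every experiment. CPOX differed by -0.09, -0.10 and -0.04 and PPOX by -0.08, -0.06 and -0.04. ALAS1 was higher in every experiment, by 0.03, 0.01 and 0.10, and so was FECH, by 0.03, 0.03 and 0.16. These 2 genes higher and 3 lower in all experiments compare with 13.1% and 11.9% of all genes, and over the 28 probe sets 4 were higher and 8 lower in all experiments, against 12.3% and 11.3% of all probe sets. The mean differences were -0.08 ± 0.05 (SE, with the block) for CPOX, -0.06 ± 0.05 for PPOX, 0.05 ± 0.05 for ALAS1 and 0.07 ± 0.05 for FECH, with adjusted p of 0.822, 0.854, 0.884 and 0.833 in limma. The other FECH probe sets had mixed signs, at 0.00, -0.09 and 0.09 (203115_at) and at -0.02, -0.11 and 0.23 (229696_at), and the mean of all probe sets gave 0.04 for FECH. The same mean, which takes in the dim probe sets, gave -0.0030 for PPOX.

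The other 4 members had mixed signs over the experiments. ALAS2 differed by -0.13, -0.05 and 0.10, ALAD by 0.20, 0.04 and -0.13, UROS by 0.06, -0.06 and 0.12 and UROD by 0.05, -0.00 and 0.10. With the block, the 95% intervals of all 9 members at the probe set used lay between -0.30 (SLC25A37) and 0.19 (ALAD and FECH). Each interval is for 1 gene at 1 probe set, so together they are not a joint bound. Without the block the intervals lay between -0.58 and 0.55 (PPOX and FECH).

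**Figure D3:**
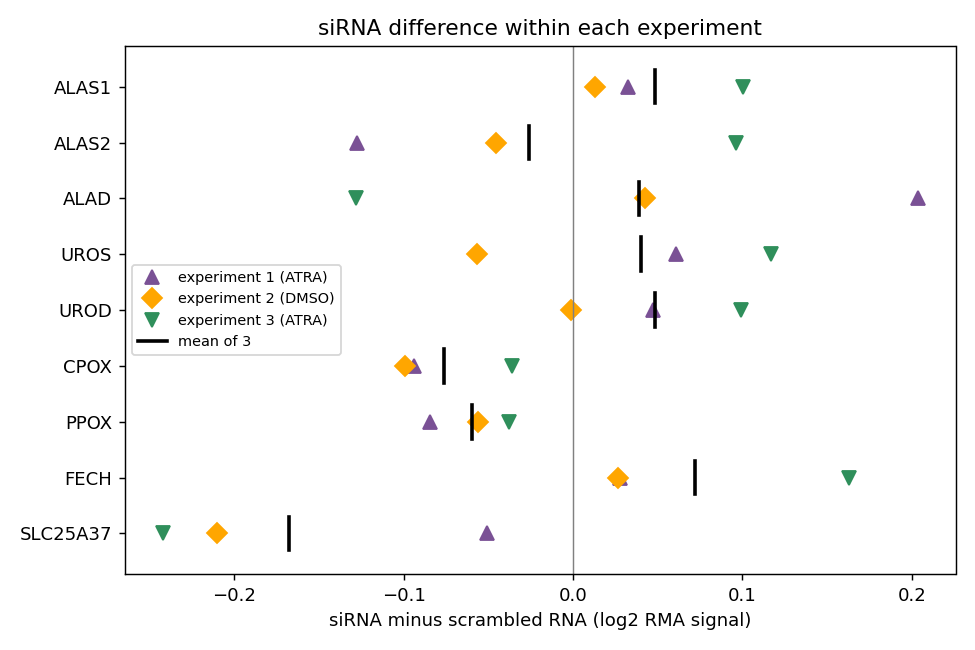
The siRNA minus scrambled difference in log2 RMA signal (x axis) is plotted for each haem synthesis gene (y axis), with 1 symbol per experiment and a bar for the mean of 3. SLC25A37 lies to the left of 0 in all 3 experiments (-0.05, -0.21 and -0.24), as do CPOX and PPOX, and ALAD runs from -0.13 to 0.20.

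Whether the siRNA difference depended on ATRA was asked by subtracting the difference under DMSO from that under ATRA. Neither fit, blocked or not, called any of the 19775 genes (0 genes, 0%), and 262 (1.32%) had an unadjusted p below 0.05 without the block, none of them a member. Of the 9 members, 7 had a value above 0, as did 10087 of all 19775 genes, and the values ran from -0.01 for PPOX to 0.15 for UROS. All of them subtract the same DMSO pair, in which 3 members were higher with the siRNA, so their signs are not independent. For UROS, the largest, the limma 95% interval ran from -0.41 to 0.71 (adjusted p = 1), and with the experiment as a block from -0.15 to 0.44 (adjusted p = 0.998). The mean of all UROS probe sets gave 0.0027. The precision rests on 1 DMSO experiment.

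Genes that surround the pathway were counted from 4 lists, none of which held a gene past the threshold in any of the 3 comparisons. Of 14 companions of the pathway, which supply substrate or handle its intermediates, 11 were measured and 7 were higher under ATRA, with a median of 0.12 against -0.01 for all genes. The median was -0.01 in experiment 1 and 0.26 in experiment 3. SLC25A39, a mitochondrial carrier that takes up glutathione, was lower by -0.26 and -1.13 in these experiments, TSPO, an outer membrane protein, by -0.08 and -0.66, and SUCLA2, a subunit of succinyl-CoA synthetase, was higher by 0.02 and 0.61. Their adjusted p in limma was 0.995 each. SLC25A38, the glycine carrier of the first step, was level with DMSO in experiment 1 (-0.01) and higher in experiment 3 (0.59).

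The iron list had the most members on the higher side. Of its 15 genes for uptake, storage and iron sensing, 12 were measured and 11 were higher under ATRA, with a median of 0.19. The median was 0.01 in experiment 1, with 6 genes higher and 6 lower, and 0.44 in experiment 3, so that the count came from the experiment with the larger control gaps, whose part was not tested. SLC40A1, the iron exporter ferroportin, was higher in both, by 0.31 and 0.84 (0.58 ± 0.36 SE, adjusted p = 0.995). FBXL5, an iron-sensing ubiquitin ligase subunit, was higher by 0.20 and 0.42, and TF, transferrin, by 0.07 and 0.49. With the siRNA 10 of the 12 were higher, as were 10466 of all 19775 genes, with a median of 0.07 against 0.01. By experiment the count was 10, 5 and 10 of 12, with medians of 0.05, -0.01 and 0.11. The 3 genes with the smallest p were PCBP2, an iron chaperone (0.09), SLC40A1 (0.19) and FBXL5 (0.10), each with a limma adjusted p of 1.

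Haem breakdown, export and sensing had 12 measured genes, of which 8 were higher under ATRA with a median of 0.05. By experiment, 4 were higher in experiment 1, with a median of -0.02, and 9 in experiment 3, with a median of 0.11. BACH1, a repressor that haem inactivates, was above DMSO on all 4 ATRA arrays, by 0.30 and 0.65 in the experiment means. HMOX2, the constitutive haem oxygenase, was below it on all 4, by -0.17 and -0.67. Both were picked for this after their values were seen. Of the 12 genes, 2 lay all above and 2 all below, where 13.5% and 13.2% of all genes did. ABCG2, a porphyrin exporter, was dim, at 0.14. HMOX1, the inducible oxygenase, was dim on all arrays, from 5.24 to 5.45. Of 13 measured genes for iron-sulphur clusters, the cofactor FECH carries, 6 were higher under ATRA and 7 lower, with a median of -0.07, which was 0.05 in experiment 1 and -0.09 in experiment 3. ISCA1 differed by 0.39, HSPA9 by 0.25 and IBA57 by 0.19, all 3 assembly factors with adjusted p of 0.995. With the siRNA, 5 of 11 companions, 7 of 12 breakdown genes and 4 of 13 iron-sulphur genes were higher, with medians of -0.02, 0.02 and -0.04. These counts differed between experiments: in experiments 1, 2 and 3 there were 6, 1 and 6 companions higher, 5, 4 and 7 breakdown genes, and 10, 5 and 3 iron-sulphur genes.

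**Figure D4:**
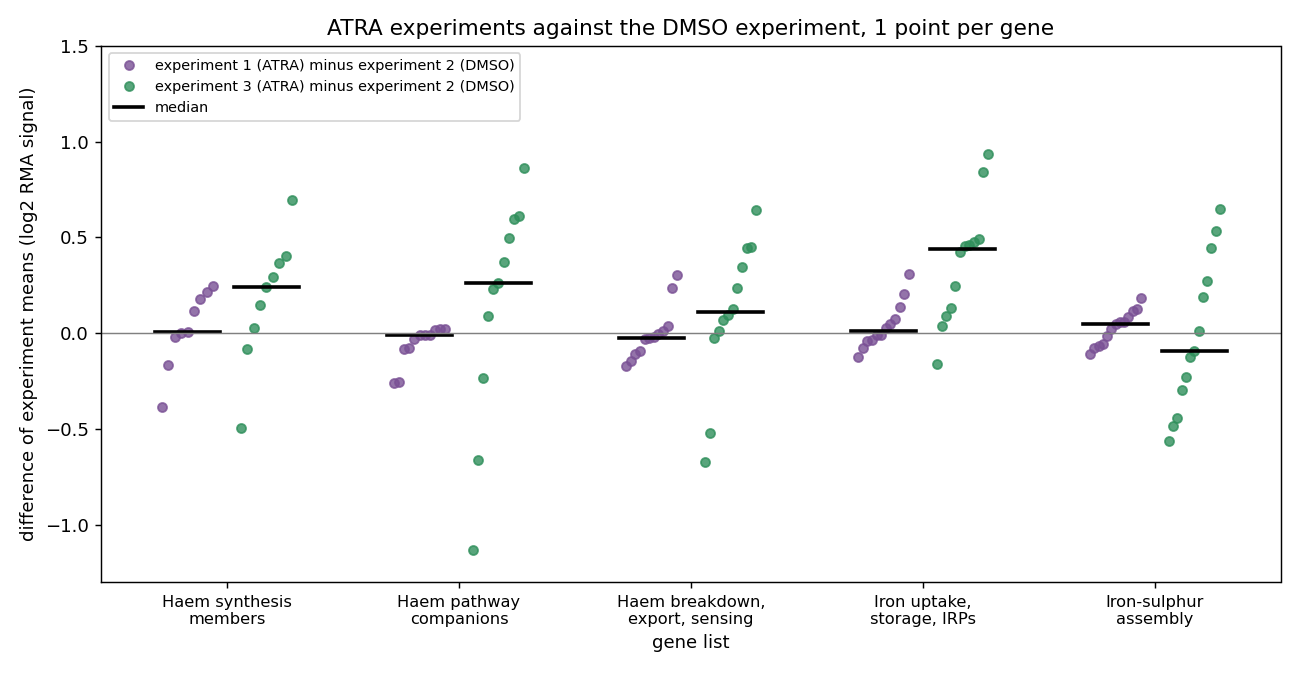
Each point is a gene, placed by the difference between an ATRA experiment and the DMSO experiment in mean log2 RMA signal (y axis), for the haem synthesis genes and 4 lists around them (x axis), and bars are medians. The points of experiment 3 spread further than those of experiment 1 in each list, and the iron list has medians of 0.01 and 0.44.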

How the data were processed

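Total RNA of 6 K562 samples was measured on 6 arrays. The deposited values are log2 expression that the authors normalized with RMA in BRB-ArrayTools, as the design text in the labels says. Software version and settings: not given in the sources used here. GEO's platform annotation named 41091 probe sets with 1 gene, 1801 with several (not used) and left 11721 unlisted, besides 62 controls. Each of 19775 genes was represented by its probe set with the highest mean, with no filter.

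Tests used limma 3.58.1 in R 4.3.3 with an intensity trend and Benjamini-Hochberg adjustment over all genes, at a threshold of 0.05, and were tested on simulated data. The siRNA fit had treatment as covariate, ATRA against DMSO used experiment means, and the third test was a contrast of 4 groups whose DMSO groups of 1 array borrow the spread of the ATRA groups. Experiment numbers pair the arrays, and the labels call the experiments independent. Across probe sets, same-numbered arrays deviated together from their group means (r of 0.703, 0.772 and 0.879). Arrays of experiments 1 and 2 also did so across numbers, at r of 0.530 and 0.594. The r within experiments 1 and 2 is therefore only partly a sign of pairing. Each experiment's pair was therefore also fitted as a block. The alternatives changed the probe set rule, the features fitted, the dim filter, centring, the trend, the block and the experiments used. All members were named, with PRAME and CYP26A1 as checks of the labels, up to 3 genes of each list by smallest p in each comparison and others chosen after their values were seen (SLC25A38 and HMOX1, and BACH1 and HMOX2 by their arrays). Members and lists were chosen with earlier results of these data known. The small number of arrays limits precision.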

Additional observations from a re-analysis of the deposited data

How the results depend on the processing

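No member passed the threshold in any comparison under any alternative that gave a test. Over all genes, the siRNA comparison called 0 genes as fitted and 5 with the replicate block, and leaving out an experiment gave 0 to 2, with or without the block (leaving out experiment 1 or 3, the treatment covariate is the block). ATRA against DMSO called 0 genes on experiment means, 2 over 6 arrays with a random block for the experiment and 132 with experiments 1 and 2 alone, where arrays of an experiment count as replicates. With the mean of all probe sets of a gene, 3 members instead of 5 were higher with the siRNA, as ALAD turned to -0.0051 and UROD to -0.014. Leaving out an experiment, with or without the block, gave -0.087 to 0.025 for ALAS2 and -0.04 to 0.12 for ALAD, both turned without experiment 1 (0.025 and -0.043). For ATRA, the mean of all probe sets turned ALAD to -0.0015 and SLC25A37 to -0.29, and experiments 1 and 2 alone turned PPOX to -0.17 and SLC25A37 to -0.019. Leaving out experiment 1 turned the ATRA difference of ALAD from 0.048 to -0.081. For the difference of siRNA differences, centring turned ALAD to 0.011 and PPOX to 0.0099, and the mean of all probe sets turned PPOX to 0.026. Leaving out experiment 3 turned ALAS2 from 0.030 to -0.082 and ALAD from -0.0046 to 0.16, and leaving out experiment 1 turned SLC25A37 from 0.064 to -0.032 and PPOX from -0.0055 to 0.018. Apart from the changes of probe sets and of experiments that define these settings, the cause was not tested. ATRA against DMSO and the dependence on ATRA gave values without a test when experiment 1 or 3 was left out. The block changed no call of a member.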
